A study of Bos taurus with 24 samples.

Results

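ITGA7, the alpha subunit of the laminin-binding integrin of skeletal muscle, was followed together with its beta partner ITGB1, the second laminin receptor gene DAG1, and 6 genes of basement membrane ligands: the laminin chains LAMA3, LAMA5, LAMB1 and LAMC1, the proteoglycan agrin (AGRN) and the proteoglycan perlecan (HSPG2). These 9 genes were picked by symbol from the 11937 genes of the count table, with results of the coculture comparison already known, and each symbol has 1 row. The cells were satellite cells, which regenerate muscle, taken from the longissimus dorsi of cattle and labelled wild type. RNA was sequenced from satellite cells grown alone (monoculture) or with fibroblasts across a membrane with 0.4 µm pores (coculture), at 3 times, with 4 libraries in each of the 6 groups.

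All groups started from 1 pool of 3 satellite cell lines at passage 3, plated at 8000 cells/cm2 in medium with 20% fetal bovine serum. The fibroblasts were at passage 10. The proliferation libraries were taken after 5 days. Differentiation was then started with medium holding 10% horse serum, and the remaining libraries were taken 24 h and 72 h later, so time and the change of serum go together. Whether wells without fibroblasts had an insert is not stated. Nor is it stated that the 4 libraries of a group came from separate cultures, so p-values measure the spread between these libraries, which may be technical.

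A basement membrane is a thin sheet of matrix that wraps each muscle fibre, and satellite cells lie beneath it. Its backbone is laminin, a trimer of an alpha, a beta and a gamma chain that is secreted and then polymerises at the cell surface. Muscle cells hold on to laminin through the ITGA7/ITGB1 integrin, which links to actin by adaptor proteins, and through dystroglycan, the product of DAG1, which links to dystrophin. Dystroglycan also binds agrin and perlecan, and it binds its ligands only after a chain of enzymes has added a specific sugar to it. ITGA7 is known to rise as myoblasts differentiate, and it is also made in smooth muscle.

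Library totals ran from 11.5 to 34.96 M counts. All 9 genes had at least 78 counts in every library. Of 12 satellite cell and myoblast markers only DES and NCAM1 have a row; PAX7, MYF5, MYOD1 and MYOG have none, and the table lists only genes with at least 6 counts in every library used. Of 12 fibroblast and fibro-adipogenic markers 9 have a row, with summed levels of 52700 to 137500 CPM (the usual depth-scaled count unit, here with TMM factors) over all libraries. Nuclear ribosomal RNA took 4.07% of counts in coculture 24 h replicate 2, 2.24% in coculture 72 h replicate 1, and 2.14% and 1.76% in monoculture 72 h replicates 3 and 4, against at most 1.40% elsewhere. Monoculture libraries and proliferating coculture libraries ran on sequencing lane 6, the 24 h coculture libraries on lanes 6 (replicates 1 and 2) and 7 (replicates 3 and 4), and the 72 h coculture libraries on lane 7. The labels also carry a number of unstated meaning, which is 1 in the monoculture libraries at 24 h and 72 h and 2 in all others. It cannot be told apart from culture at those times or from time between proliferation and 24 h in monoculture.

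ITGA7 rose in monoculture after the change of medium and stayed high, while in coculture it rose by 24 h to a lower level and came back down by 72 h. Its row (ENSBTAG00000012897) lies on chromosome 5 at 57548782 to 57572012; here and below positions are those of the count table, whose genome build the labels do not name. The monoculture libraries, replicates 1 to 4, read 36.8, 34.2, 35.9 and 33.6 CPM in proliferation, 140.3, 121, 135 and 126 CPM at 24 h, and 162, 160.5, 148 and 151 CPM at 72 h. The coculture libraries read 27.7, 31.8, 28.6 and 36.7 CPM in proliferation, 57.2, 52.0, 62.6 and 59.8 CPM at 24 h, and 48.0, 31.1, 36.6 and 38.1 CPM at 72 h. The groups of the 2 cultures overlap in proliferation, where the coculture library at 36.7 CPM reaches into the monoculture range, and are far apart at 24 h and 72 h. Separation of all libraries is common, here and for the genes below. Between cultures 53.0%, 24.4% and 42.0% of all genes had no overlap in proliferation, at 24 h and at 72 h. In order of level, monoculture at 72 h, monoculture at 24 h and coculture at 24 h each stand clear of the next, and the 3 lowest groups (coculture at 72 h and both proliferating groups) overlap with their neighbours.

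**Figure D1:**
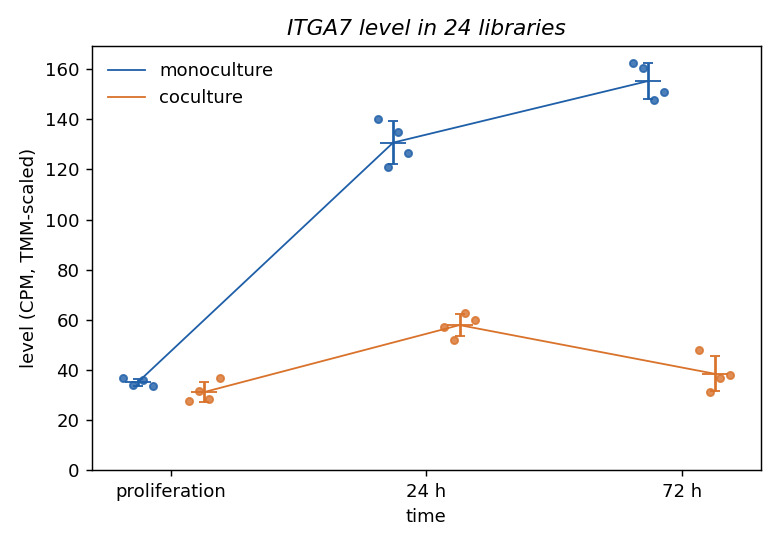
ITGA7 level in CPM (TMM-scaled, vertical axis from 0) at each time (horizontal axis), 1 point per library, with group means joined by lines and bars of 1 SD (n = 4). Monoculture runs from a mean of 35.1 to 131 and 155 CPM, and coculture from 31.2 to 57.9 and 38.5 CPM.

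Changes over time were tested with edgeR's quasi-likelihood test, adjusted by Benjamini-Hochberg over all genes and called under an adjusted p of 0.05. Each log2 change is given with its SE. These tests use the same libraries as the comparisons known when the genes were chosen, and their p-values are to be read with that limit. Within monoculture ITGA7 rose from 35.1 ± 1.47 to 131 ± 8.57 CPM by 24 h (SD, n = 4), a log2 change of 1.90 ± 0.0843 (SE; edgeR adjusted p = 8.21e-18), the 29th largest change in size among the 11937 genes. From 24 h to 72 h it rose further to 155 ± 7.20 CPM (log2 0.25 ± 0.0775, edgeR adjusted p = 0.00725). Scaled by library sizes alone, without the TMM factors that set most genes level between libraries, this second step was 0.12 (edgeR adjusted p = 0.192), a scaling under which the median of all genes stood at -0.13. Within coculture ITGA7 rose from 31.2 ± 4.05 to 57.9 ± 4.53 CPM by 24 h (log2 0.89 ± 0.0869, edgeR adjusted p = 1.24e-09) and then fell to 38.5 ± 7.05 CPM at 72 h (log2 -0.59 ± 0.0855, edgeR adjusted p = 9.08e-07). The 4 coculture libraries at 72 h all lie below the 4 at 24 h, as for 23.1% of all genes. The highest of them, replicate 1 at 48.0 CPM, is the library rich in ribosomal RNA, and without it the fall was -0.71 ± 0.0777 (edgeR adjusted p = 5.15e-09). Within lane 7 alone, with 2 libraries at 24 h, it was -0.67 (edgeR adjusted p = 0.000203).

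The difference in ITGA7 between cultures, which is a description because the gene was chosen with it known, was -0.16 ± 0.0897 on the log2 scale in proliferation, -1.17 ± 0.0808 at 24 h (2.26-fold lower in coculture) and -2.01 ± 0.0840 at 72 h (4.04-fold lower). By size these are the 7877th, 39th and 29th largest differences among the 11937 genes. At 24 h the difference within lane 6 alone was -1.26. At 72 h no lane holds both cultures, and with lane as a term, estimated from the 24 h coculture libraries, the difference was -2.18. The lane 6 values use coculture 24 h replicates 1 and 2, and the lane term sets these against replicates 3 and 4. Replicate 2 is rich in ribosomal RNA, so here and below these checks cannot tell lane from that library. In RNA from whole cultures, fewer cells making a transcript and less transcript per cell cannot be told apart.

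At 72 h smooth muscle and pericyte markers, like ITGA7, were mostly lower in coculture than in monoculture. Of 13 such markers 10 have a row; their summed level was 9671 to 10770 CPM in coculture and 14560 to 16930 CPM in monoculture at 72 h, with 9 lower and 1 higher in coculture by edgeR's test, beside 25.4% and 25.1% of all genes. In proliferation the sum was higher in coculture, at 19120 to 20870 against 15840 to 15980 CPM. At 24 h the ranges overlapped, at 17080 to 18190 against 18090 to 20390 CPM. The largest part of these sums was ACTA2, a smooth muscle actin gene. Its mean was 5772 CPM in coculture against 9823 CPM in monoculture at 72 h, and 14000 against 11370 CPM in proliferation. RGS5, KCNJ8 and ABCC9 have no row. From 24 h to 72 h in monoculture, where ITGA7 rose, 1 of these markers rose and 7 fell, beside 27.3% and 26.6% of all genes. In coculture, where ITGA7 fell, 0 rose and 9 fell, beside 24.4% and 23.8% of all genes. DES, the muscle intermediate filament gene, also stood lower in coculture at 72 h, at 86.1 against 148 CPM (log2 -0.78 ± 0.0618, edgeR adjusted p = 7.53e-12), and higher in proliferation, at 125 against 72.1 CPM. NCAM1, the adhesion molecule that is the other muscle marker with a row, stood at 41.8 against 46.6 CPM at 72 h (log2 -0.16, edgeR adjusted p = 0.0195), after rising in both cultures from 24 h (from 9.84 CPM in coculture and from 13 CPM in monoculture). Of the 9 fibroblast and fibro-adipogenic markers 2 were higher in coculture at 72 h, 2 lower and 5 not called, beside 50.5% of all genes called. Their median log2 difference was 0.078, with summed levels of 113500 to 117400 CPM in coculture against 119700 to 137500 CPM in monoculture. PDGFRA, the growth factor receptor that marks fibro-adipogenic cells, was 1 of the 2 higher ones, at 120.5 against 46.3 CPM (log2 1.38). It is named after its values were seen, so this is a description and does not stand for the list. The part of these cell markers in the ITGA7 values was not tested.

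ITGB1, the beta subunit shared by many integrins, varied far less than ITGA7. Its row (ENSBTAG00000015910) lies on chromosome 13 at 19971719 to 20014496. The monoculture libraries read 3454, 3385, 3276 and 3172 CPM in proliferation, 3755, 3304, 3437 and 3475 CPM at 24 h, and 2728, 2877, 3578 and 2770 CPM at 72 h. With fibroblasts they read 2622, 2622, 2629 and 2666 CPM in proliferation, 3047, 3027, 3029 and 2985 CPM at 24 h, and 2511, 2392, 2446 and 2493 CPM at 72 h. At each time all 4 coculture libraries lie below all 4 monoculture libraries, and the 72 h monoculture value of 3578 CPM comes from replicate 3, 1 of the libraries rich in ribosomal RNA. The log2 difference between cultures was -0.33 ± 0.0549, -0.21 ± 0.0549 and -0.28 ± 0.0549 in order of time; with library sizes alone the 72 h value was -0.14.

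Over time ITGB1 did not pass the test between proliferation and 24 h in monoculture (log2 0.07 ± 0.0549, edgeR adjusted p = 0.243; -0.12, edgeR adjusted p = 0.036, with library sizes alone) and fell from 24 h to 72 h (-0.23 ± 0.0549, edgeR adjusted p = 0.000923). In coculture it rose by 24 h (0.20 ± 0.0549, edgeR adjusted p = 0.00423; a log2 change of 0.074, edgeR adjusted p = 0.225, with library sizes alone) and fell by 72 h (-0.30 ± 0.0549, edgeR adjusted p = 4.09e-05). The ratio of ITGA7 to ITGB1 within each library, which needs no scaling between libraries, therefore followed ITGA7. As mean log2 ratios of CPM it was -6.56 ± 0.0497 in proliferating monoculture (SD, n = 4), -4.74 ± 0.0496 at 24 h and -4.26 ± 0.234 at 72 h. In coculture it was -6.41 ± 0.173, -5.71 ± 0.118 and -6.02 ± 0.230. The rise by 24 h in each culture and the further rise in monoculture each gave p = 0.0286 in a two-sided exact permutation test over libraries, the smallest p that 4 against 4 allows (Benjamini-Hochberg adjusted p = 0.0429 over 12 such tests of 3 ratios). The fall in coculture from 24 h to 72 h missed the threshold (log2 -0.31, exact permutation p = 0.0857, adjusted p = 0.0935).

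DAG1 encodes both subunits of dystroglycan and was the steadiest of the receptor genes between cultures. Its row (ENSBTAG00000011580) lies on chromosome 22 at 50615592 to 50663221. In monoculture the values were 165, 159.5, 163 and 161 CPM in proliferation, 182, 199, 203 and 197 CPM at 24 h, and 166, 179.9, 193 and 169 CPM at 72 h. Coculture libraries gave 179, 163, 174 and 173 CPM in proliferation, 189, 185, 194 and 182 CPM at 24 h, and 162, 161, 163 and 178 CPM at 72 h. The cultures overlap at every time, with log2 differences of 0.09 ± 0.0465, -0.06 ± 0.0463 and -0.09 ± 0.0466 (the last 0.043 with library sizes alone). In monoculture DAG1 rose by 24 h (log2 0.27 ± 0.0464, edgeR adjusted p = 7.51e-06; a log2 change of 0.079, edgeR adjusted p = 0.15, with library sizes alone) and fell by 72 h (-0.14 ± 0.0465, edgeR adjusted p = 0.0108; -0.11, edgeR adjusted p = 0.0565, without monoculture 72 h replicate 1). In coculture it rose by 0.12 ± 0.0464 (edgeR adjusted p = 0.0314) and fell by 72 h (-0.17 ± 0.0465, edgeR adjusted p = 0.00254). The coculture rise was -0.0003 with library sizes alone. It also lost its call with lane as a term (0.12, edgeR adjusted p = 0.115), within lane 6 alone (0.13, edgeR adjusted p = 0.0844) and when coculture proliferation replicate 2, coculture 24 h replicate 1 or coculture 24 h replicate 3 was left out (edgeR adjusted p = 0.127, 0.0621 and 0.0993).

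The alpha chains set which receptor a laminin trimer binds, and the 2 alpha chains followed here differed in when they departed from monoculture. LAMA3, best known as the alpha chain of epithelial laminin, was lower in coculture at every time. Its row (ENSBTAG00000027181) lies on chromosome 24 at 32710019 to 32971252. Monoculture libraries gave 17.01, 18.3, 16.1 and 17.4 CPM in proliferation, 11.9, 17.5, 17.01 and 17.1 CPM at 24 h, and 30.5, 22.7, 24.1 and 24.5 CPM at 72 h. The coculture libraries read 6.12, 6.11, 7.92 and 6.26 CPM in proliferation, 7.83, 9.48, 9.62 and 8.01 CPM at 24 h, and 10.5, 8.35, 10.7 and 11.1 CPM at 72 h. No coculture library reaches the lowest monoculture library of its time. The log2 differences were -1.41 ± 0.119 (2.66-fold lower, the 18th largest in size of all genes), -0.87 ± 0.115 and -1.32 ± 0.108.

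In monoculture LAMA3 did not pass the test between proliferation and 24 h (log2 -0.11 ± 0.105, edgeR adjusted p = 0.376; -0.30, edgeR adjusted p = 0.0143, with library sizes alone), where replicate 1 stood below the other libraries of its group, and then rose by 72 h (0.68 ± 0.102, edgeR adjusted p = 1.46e-06). In coculture it rose by 24 h (0.43 ± 0.1298, edgeR adjusted p = 0.00794; a log2 change of 0.30, edgeR adjusted p = 0.0507, with library sizes alone), although the libraries of those groups overlap, and its value from 24 h to 72 h missed the threshold (0.23 ± 0.122, edgeR adjusted p = 0.129), but not without coculture 72 h replicate 2 (0.31, edgeR adjusted p = 0.0456).

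LAMA5, an alpha chain widespread in embryonic and vascular basement membranes, was alike in both cultures in proliferation and apart at 72 h. Its row (ENSBTAG00000003061) lies on chromosome 13 at 54887483 to 54939874. The monoculture libraries read 263, 236, 247 and 239.6 CPM in proliferation, 427, 476, 587 and 484 CPM at 24 h, and 565, 531, 525 and 480.4 CPM at 72 h. In coculture the values were 263, 230.4, 228 and 236 CPM in proliferation, 369.9, 392, 422.5 and 389 CPM at 24 h, and 281, 224, 246 and 259 CPM at 72 h. The proliferating groups overlap, and from 24 h on every coculture library lies below every monoculture library. The log2 differences were -0.04 ± 0.0717, -0.33 ± 0.0711 and -1.06 ± 0.0721, the last being 2.08-fold lower in coculture and the 289th largest in size.

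In monoculture LAMA5 rose by 24 h from 247 ± 11.9 to 494 ± 67.2 CPM (SD, n = 4; log2 1.00 ± 0.0720, edgeR adjusted p = 3.23e-13) and did not pass the test thereafter (0.09 ± 0.0710, edgeR adjusted p = 0.291; 0.18, edgeR adjusted p = 0.0188, without monoculture 24 h replicate 3). In coculture it rose by 24 h from 239 ± 16.1 to 393 ± 21.8 CPM (0.72 ± 0.0718, edgeR adjusted p = 1.9e-09) and fell by 72 h to 252 ± 23.7 CPM (-0.64 ± 0.0717, edgeR adjusted p = 7.57e-09). Both ITGA7 and LAMA5 thus rose in each culture by 24 h and fell in coculture by 72 h. HSPG2 and DAG1 had the same calls, with smaller falls (log2 -0.21 and -0.17). The fall of HSPG2 and the coculture rise of DAG1 lost their calls under several other settings. Over the 24 libraries the Pearson correlation of log2 CPM between ITGA7 and LAMA5 was 0.952, the highest of ITGA7 with any of the other 8 genes. The points share their culture, time and lane, so this is a description.

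LAMB1 and LAMC1 encode the beta and gamma chains found in most laminin trimers, and they moved together. The LAMB1 row (ENSBTAG00000011412) lies on chromosome 4 at 48985684 to 49062382 and the LAMC1 row (ENSBTAG00000011966) on chromosome 16 at 64062444 to 64183738. For LAMB1 the monoculture libraries read 472, 431, 456 and 438 CPM in proliferation, 633, 652, 702 and 669 CPM at 24 h, and 858, 906, 934 and 899 CPM at 72 h. With fibroblasts they read 580.0, 547.5, 562 and 572 CPM in proliferation, 633, 617, 625 and 625 CPM at 24 h, and 1023, 1036, 1053 and 1057 CPM at 72 h. Coculture stands above monoculture in proliferation and at 72 h and just below it at 24 h, without overlap at any of the 3 times. At 24 h the gap was very small, with the highest coculture library at 632.8 CPM and the lowest monoculture library at 633.4 CPM. LAMB1 was not called between cultures at that time. The log2 differences were 0.33 ± 0.0392, -0.09 ± 0.0391 and 0.21 ± 0.0391; with library sizes alone the 72 h value was 0.35.

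For LAMC1 the monoculture libraries read 572, 539, 565 and 544 CPM in proliferation, 670.5, 752, 789 and 759.5 CPM at 24 h, and 813, 888, 977 and 825.5 CPM at 72 h. The coculture libraries read 585, 551, 558 and 588 CPM in proliferation, 644, 668, 669 and 651 CPM at 24 h, and 1051, 1049, 1051 and 1104 CPM at 72 h. The proliferating groups overlap, coculture is lower at 24 h and higher at 72 h, and the log2 differences were 0.04 ± 0.0499 (-0.029 with library sizes alone), -0.18 ± 0.0498 and 0.28 ± 0.0498. Both chains rose at each step in each culture. From 24 h to 72 h the rise in coculture was 0.74 ± 0.0393 for LAMB1 (edgeR adjusted p = 3.9e-16) and 0.69 ± 0.050 for LAMC1 (edgeR adjusted p = 5.16e-13), beside 0.44 ± 0.0392 and 0.24 ± 0.0498 in monoculture (edgeR adjusted p = 5.67e-11 and 0.000169). By 24 h the order was the other way, with 0.56 and 0.42 in monoculture (edgeR adjusted p = 1.61e-13 and 1.21e-08) and 0.14 and 0.21 in coculture (edgeR adjusted p = 0.00354 and 0.00127). With library sizes alone the coculture rises by 24 h were not called (LAMB1 0.020, LAMC1 0.081; edgeR adjusted p = 0.732 and 0.181), nor was that of LAMC1 from 24 h to 72 h in monoculture (0.11, edgeR adjusted p = 0.0706). The Pearson correlation of the 2 chains over the 24 libraries was 0.964, again a description.

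**Figure D2:**
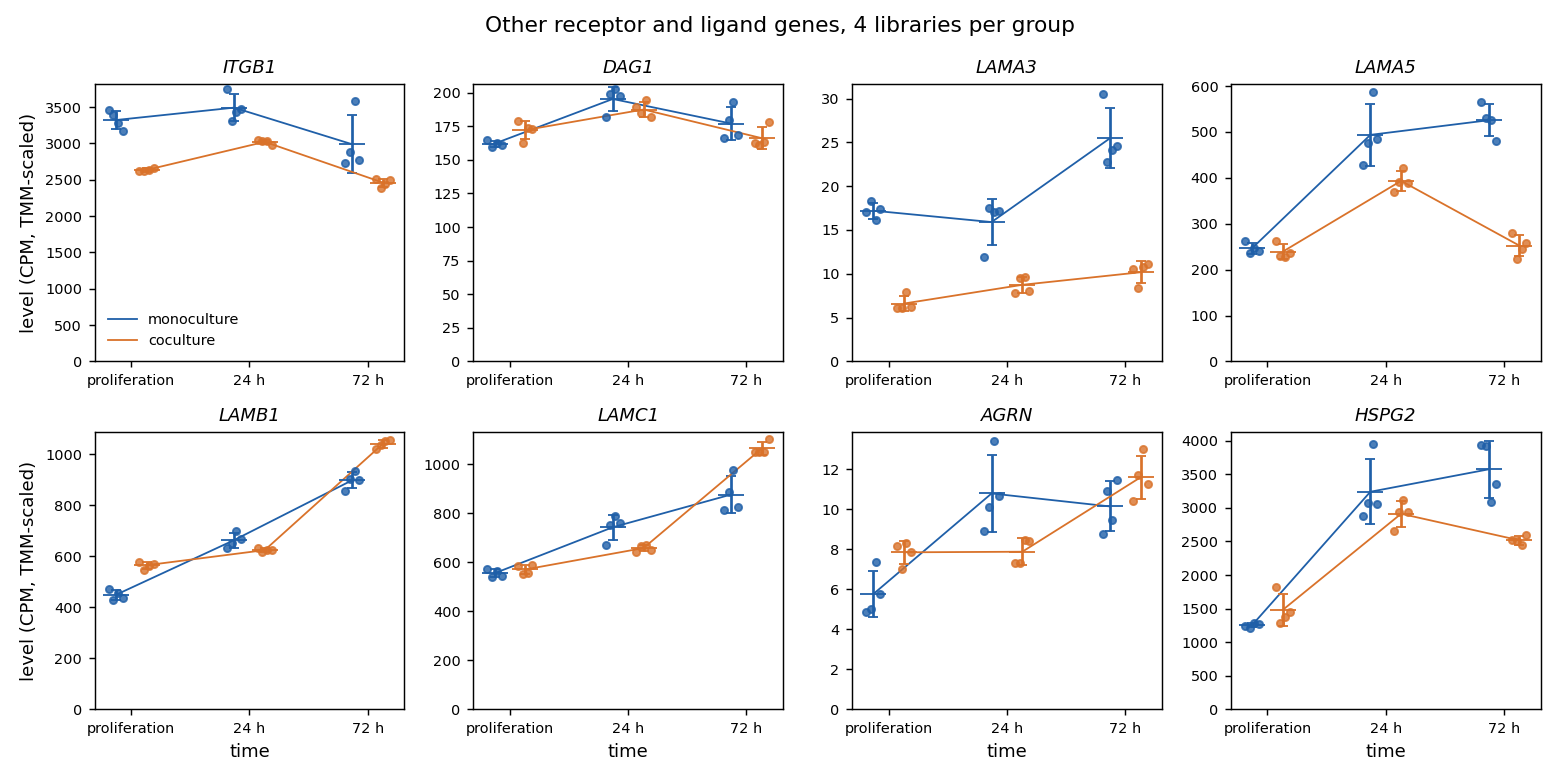
Level in CPM (TMM-scaled, vertical axes from 0, 1 scale per gene) of the other 8 genes at each time, 1 point per library, with group means joined by lines and bars of 1 SD (n = 4). LAMB1 and LAMC1 end highest in coculture (1042 and 1064 CPM at 72 h), while LAMA3, LAMA5 and HSPG2 end highest in monoculture (25.4, 525.5 and 3572 CPM).

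Ratios between chains, again formed within each library, changed over time as well. The mean log2 ratio of LAMA3 to LAMA5 CPM went from -3.84 to -4.96 and -4.38 in monoculture, and each step gave an exact permutation p = 0.0286 (adjusted p = 0.0429). In coculture it went from -5.19 to -5.50 and -4.64, where the first step missed the threshold (exact permutation p = 0.0571, adjusted p = 0.0686) and the second gave p = 0.0286 (exact permutation; adjusted p = 0.0429). The ratio of LAMB1 to LAMC1 moved little, from -0.31 to -0.16 and 0.04 in monoculture and between -0.07 and -0.01 in coculture. Only its 2 steps in monoculture passed (exact permutation p = 0.0286, adjusted p = 0.0429). The counts hold no transcript lengths, so these ratios show change and not which chain is more abundant.

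AGRN, the proteoglycan that clusters acetylcholine receptors at the nerve-muscle synapse and bridges laminin to dystroglycan, was the least counted of the 9 genes, with 78 to 261 counts per library. Its row (ENSBTAG00000013191) lies on chromosome 16 at 51422882 to 51462010. Monoculture libraries gave 4.84, 5.04, 7.39 and 5.78 CPM in proliferation, 8.92, 10.1, 13.4 and 10.7 CPM at 24 h, and 8.75, 10.9, 9.46 and 11.4 CPM at 72 h. The corresponding coculture values were 8.16, 7.03, 8.32 and 7.87 CPM in proliferation, 7.30, 7.31, 8.48 and 8.42 CPM at 24 h, and 10.4, 11.7, 12.99 and 11.2 CPM at 72 h. Coculture was lower without overlap at 24 h, and the groups overlap at the other 2 times. The log2 differences were 0.42 ± 0.131, -0.45 ± 0.120 and 0.20 ± 0.118, and the last was -0.01 with lane as a term. In monoculture AGRN rose by 24 h (0.90 ± 0.126, edgeR adjusted p = 2.39e-07) and did not pass the test after that (-0.10 ± 0.118, edgeR adjusted p = 0.49). In coculture the order was the reverse, with 0.03 ± 0.126 by 24 h (edgeR adjusted p = 0.872) and a rise by 72 h (0.55 ± 0.120, edgeR adjusted p = 0.00029).

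HSPG2 encodes perlecan, a large heparan sulfate proteoglycan that ties the laminin and collagen networks together. Its row (ENSBTAG00000017122) lies on chromosome 2 at 130867439 to 130977366. In monoculture the values were 1248, 1214, 1290 and 1264 CPM in proliferation, 2881, 3074, 3949 and 3049 CPM at 24 h, and 3937, 3913, 3089 and 3349 CPM at 72 h. In coculture the values were 1818, 1283, 1381 and 1444 CPM in proliferation, 2652, 2944, 3115 and 2933 CPM at 24 h, and 2518, 2499, 2448 and 2600 CPM at 72 h. Only at 72 h do the cultures not overlap, and there the 2 lowest monoculture libraries are replicates 3 and 4, rich in ribosomal RNA. The log2 differences were 0.24 ± 0.0863, -0.15 ± 0.0862 and -0.51 ± 0.0864, and the last was -0.64 without the 4 libraries rich in ribosomal RNA and -0.38 with library sizes alone.

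HSPG2 rose by 24 h in monoculture (log2 1.37 ± 0.0878, edgeR adjusted p = 2.52e-14, the 176th largest change in size) and in coculture (0.97 ± 0.0870, edgeR adjusted p = 1.99e-10). From 24 h to 72 h it did not pass the test in monoculture (0.14 ± 0.0862, edgeR adjusted p = 0.168), but did without the libraries rich in ribosomal RNA (0.28, edgeR adjusted p = 0.0127), without monoculture 24 h replicate 3 (0.25, edgeR adjusted p = 0.0105) or without monoculture 72 h replicate 3 (0.21, edgeR adjusted p = 0.0438). In coculture it fell by 0.21 ± 0.0862 (edgeR adjusted p = 0.0441), a call lost in the DESeq2 Wald test (adjusted p = 0.0992), with library sizes alone (edgeR adjusted p = 0.0595), without the libraries rich in ribosomal RNA (edgeR adjusted p = 0.0558) and when any 1 library of the 2 groups other than coculture 24 h replicate 1 was left out (edgeR adjusted p from 0.0533 to 0.127). In monoculture at 24 h, replicate 3 was the highest library of its group for LAMA5, LAMB1, LAMC1, AGRN, HSPG2 and DAG1.

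**Figure D3:**
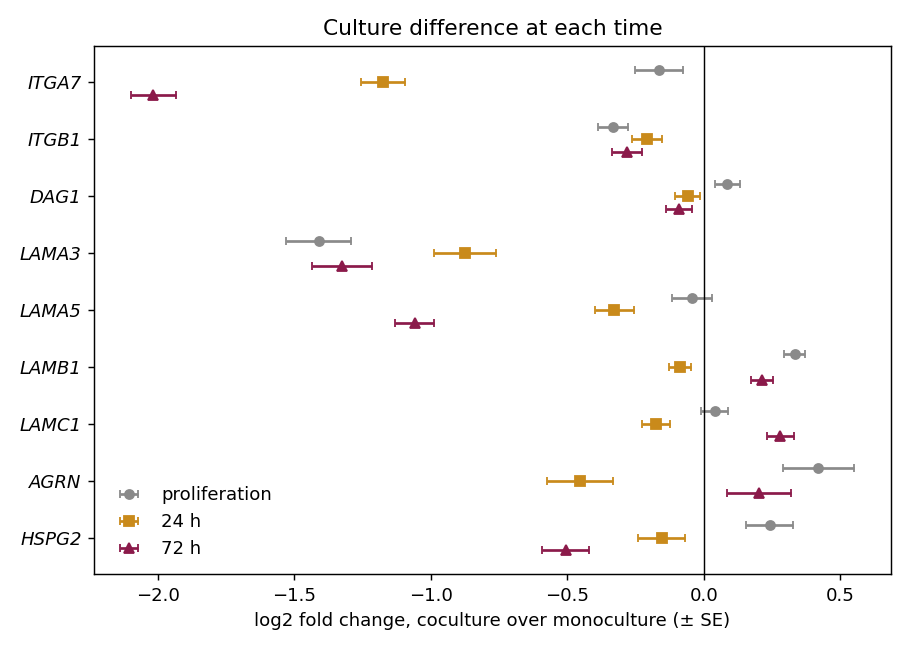
Log2 fold change of coculture over monoculture (horizontal axis, bars of 1 SE) for the 9 genes, 1 marker per time. ITGA7 moves from -0.16 to -1.17 and -2.01 and LAMA5 from -0.04 to -0.33 and -1.06, while LAMB1 and LAMC1 are at 0.21 and 0.28 at 72 h.

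Counted over the 9 genes, coculture was past the adjusted p of 0.05 in the higher direction for 3 and in the lower direction for 2 in proliferation, where 59.0% of all genes were called (30.3% higher and 28.7% lower). At 24 h 0 were higher and 6 lower, with 23.8% of all genes called (11.5% higher and 12.2% lower). At 72 h 2 were higher and 5 lower, with 50.5% of all genes called (25.1% higher and 25.4% lower). Since the genes were chosen with these comparisons known, nothing is read from these counts. Their median log2 differences were 0.04, -0.21 and -0.28, beside medians of all genes within 0.004 of 0.

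Over time the counts rest on comparisons other than those between cultures. They use the same libraries, and earlier results of these data were known, so they are not independent of the choice of genes. Successive steps within a culture share their 24 h libraries. From proliferation to 24 h 7 of the 9 rose in monoculture and none fell, where 68.5% of all genes were called (34.3% higher and 34.2% lower). In coculture 8 of the 9 rose and none fell over that step, where 43.2% were called (21.0% higher and 22.2% lower). The median log2 change was 0.56 in monoculture and 0.21 in coculture, beside -0.001 and -0.008 over all genes. With library sizes alone, under which the medians of all genes stood at -0.19 and -0.13, 3 of 9 were called in coculture (ITGA7, LAMA5 and HSPG2).

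From 24 h to 72 h 4 rose and 2 fell in monoculture, where 53.9% of all genes were called (27.3% higher and 26.6% lower). In coculture 3 rose and 5 fell, where 48.2% were called (24.4% higher and 23.8% lower). The 3 that rose in coculture were LAMB1, LAMC1 and AGRN, and the 5 that fell were ITGA7, ITGB1, LAMA5, HSPG2 and DAG1. The median size of the change, whatever its sign, was 0.55 over the 9 genes in coculture and 0.18 over all genes, and in monoculture 0.22 and 0.21.

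**Figure D4:**
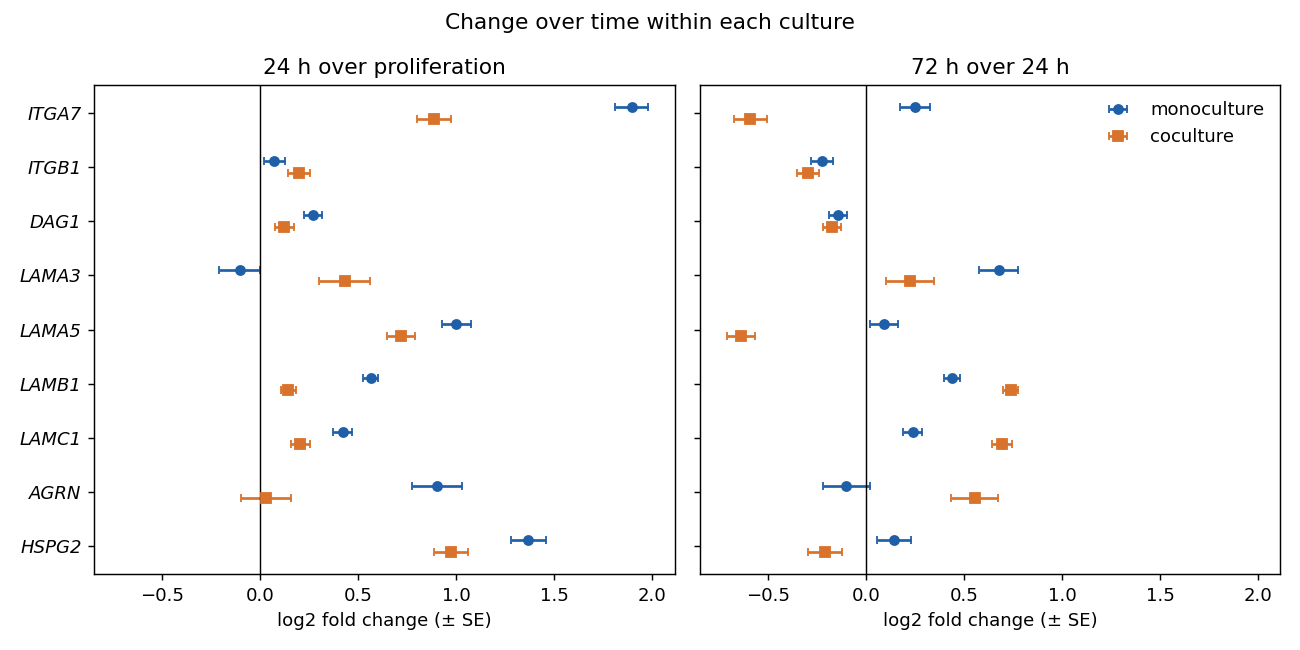
Log2 change from proliferation to 24 h (left) and from 24 h to 72 h (right) for the 9 genes, with bars of 1 SE, in monoculture (circles) and coculture (squares). ITGA7 has the largest rise by 24 h in monoculture (1.90). From 24 h to 72 h monoculture and coculture are on opposite sides of 0 for ITGA7 (0.25 and -0.59). The same holds for LAMA5 (0.09 and -0.64), HSPG2 (0.14 and -0.21) and AGRN (-0.10 and 0.55), which were not called in monoculture.

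The lists of other genes, here and below, and the cell markers above were chosen with earlier results of these data known. Genes named from them are mainly those with the largest changes, and their p-values are to be read with that limit. The other laminin chains were tested in all comparisons. Of 8 such genes 5 have a row. At 72 h 4 were lower and 1 higher in coculture (50.5% of all genes called), with a median log2 difference of -0.58 beside -0.001 over all genes. LAMC3, a gamma chain, stood at 92.7 against 205 CPM (-1.15 ± 0.0582, edgeR adjusted p = 4.39e-16) and LAMB2, the beta chain of the synaptic basement membrane, at 612 against 918 CPM (-0.58 ± 0.0570, edgeR adjusted p = 6.51e-10). LAMA2, the main alpha chain of mature muscle, stood at 30.4 against 40.2 CPM (-0.40 ± 0.0727, edgeR adjusted p = 2.9e-05), after rising by 2.18 in monoculture and 2.00 in coculture between 24 h and 72 h (edgeR adjusted p = 7.65e-20 and 3.25e-18). LAMB3, the usual beta partner of LAMA3 in epithelia, was near the floor, at 1.37 against 2.28 CPM (edgeR adjusted p = 0.0116). LAMA4, an alpha chain of vessel walls, was the exception at 806.5 against 504.5 CPM (0.68 ± 0.0436, edgeR adjusted p = 9.06e-14). In proliferation 1 was higher and 1 lower (59.0% of all genes called), and at 24 h only LAMB2 was called (-0.26, edgeR adjusted p = 0.000863; 23.8% called), with 2 chains lower without the libraries rich in ribosomal RNA.

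Of 23 other basement membrane genes 13 have a row, and the type IV collagens COL4A1 and COL4A2, which form the second network of the sheet, changed sides between times. In proliferation 7 of the 13 were higher and 3 lower in coculture (59.0% of all genes called), with COL4A2 at 2089 against 1490 CPM (0.49 ± 0.0645, edgeR adjusted p = 2.1e-07). At 72 h 4 were higher and 6 lower (50.5% of all genes called), with COL4A2 at 2114 against 2952 CPM (-0.48 ± 0.0645, edgeR adjusted p = 2.72e-07). The genes furthest below monoculture at 72 h were TINAGL1, a laminin-binding matrix protein, at 135 against 309 CPM (-1.20 ± 0.0462, edgeR adjusted p = 1.15e-18), and the calcium-binding protein SMOC1 (-0.81). Those furthest above it were NTN4 (0.43), a netrin that binds laminin, NID1 (0.32), which links laminin to collagen IV, and the fibulin HMCN1 (0.28). In monoculture 10 of the 13 rose by 24 h and 2 fell (68.5% of all genes called), led by COL4A2 (1.09), COL4A1 (1.00) and COL18A1 (0.96). At 24 h 1 was higher in coculture (2 without the libraries rich in ribosomal RNA) and 4 were lower (23.8% of all genes called).

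Of 23 other integrin subunits 13 have a row. At 72 h 4 were higher in coculture and 7 lower, with a median log2 difference of -0.17 beside -0.001 over all genes, where 50.5% of all genes were called (25.1% higher and 25.4% lower). Among laminin-binding alpha subunits, ITGA3 stood at 239.5 against 347 CPM (-0.53 ± 0.0476, edgeR adjusted p = 1.08e-10) and ITGA6 at 22.9 against 25.8 CPM (-0.17 ± 0.0658, edgeR adjusted p = 0.0351, with overlapping libraries). ITGB4, the epithelial laminin receptor subunit, stood lowest relative to monoculture, at a low level, 2.54 against 4.56 CPM (-0.86 ± 0.152, edgeR adjusted p = 2.37e-05). The vitronectin receptor subunit ITGAV (0.45), its partner ITGB8 (0.55) and ITGA8 (0.31) were higher. In proliferation 3 were higher and 4 lower (59.0% of all genes called), and ITGAV and ITGB8 stood on the other side, at -0.45 and -0.64 (edgeR adjusted p = 2.3e-06 and 0.00175). At 24 h 3 were higher and 5 lower (23.8% called). In monoculture 8 rose and 3 fell by 24 h (68.5% called), with ITGA3 rising by 1.12 ± 0.0482 (edgeR adjusted p = 3.95e-18), beside 1.90 for ITGA7.

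Partners of the dystroglycan receptor changed less uniformly. Of 15 genes of the dystrophin-glycoprotein complex 10 have a row, and 3 were higher and 2 lower in coculture at 72 h, with a median of -0.002. That is near the 50.5% of all genes called, and 1 was higher with lane as a term. Dystrophin itself (DMD) stood at 29.1 against 24.4 CPM (0.25 ± 0.0659, edgeR adjusted p = 0.00223). SNTG2 had the largest difference (-1.82) at a level of 0.698 against 2.48 CPM. In proliferation 1 was higher and 4 lower, among them utrophin (UTRN, -0.50) and the sarcoglycans SGCD (-0.48) and SGCB (-0.48), where 59.0% of all genes were called. At 24 h 1 was higher and 2 lower, beside 23.8% of all genes called; none was higher with library sizes alone, with lane as a term, within lane 6, in a fit of only the 8 libraries compared or in DESeq2's test, and 1 was lower with lane as a term or within lane 6.

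The enzymes that build the ligand-binding sugar on dystroglycan went from mostly higher in coculture in proliferation to mostly lower at 72 h. Of 20 such genes 17 have a row; 10 were higher and 3 lower in proliferation, 3 and 3 at 24 h, and 1 and 11 at 72 h, with medians of 0.20, -0.08 and -0.25, beside 59.0%, 23.8% and 50.5% of all genes called. At 72 h POMGNT2, a glycosyltransferase of this chain, stood at 16.1 against 21.2 CPM (-0.40 ± 0.0740, edgeR adjusted p = 4.54e-05) and DPM2, a subunit of the mannose donor's synthase, at 22.4 against 28.1 CPM (-0.32). The count at 72 h depended on scaling and lane: 4 were lower with library sizes alone, under which the median of all genes stood at 0.13, and 6 were lower with lane as a term. In proliferation 6 were higher with library sizes alone, and at 24 h 1 was higher with library sizes alone, with lane as a term or within lane 6.

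Of 9 other laminin and agrin receptors and partners of laminin-binding integrins 6 have a row, and 4 were lower and none higher in coculture at 72 h (50.5% of all genes called; 1 higher with library sizes alone). They included the laminin receptor BCAM (-0.82 ± 0.0560, edgeR adjusted p = 3.15e-13) and the tetraspanins CD151 (-0.65 ± 0.0559, edgeR adjusted p = 5.01e-11) and CD82 (-0.58 ± 0.0679, edgeR adjusted p = 2.06e-08), which sit beside laminin-binding integrins in the membrane. At 24 h 4 of the 6 were already lower and 1 higher (23.8% of all genes called), with CD151 at -0.46 (edgeR adjusted p = 2.89e-07). In proliferation 3 were higher and 2 lower (59.0% called). In monoculture CD82 and CD151 rose by 1.10 and 1.05 by 24 h, the 2 largest changes of the list.

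Integrin adaptors, which tie the cytoplasmic tails to actin, had 31 of 35 genes with a row. In proliferation 17 were higher and 5 lower in coculture, at 24 h 3 and 7, and at 72 h 3 and 22 (13 lower and 6 higher with library sizes alone; 1 higher with lane as a term). Of all genes 59.0%, 23.8% and 50.5% were called at these times. KANK1, a talin-binding protein, was lowest at 72 h, at 43.4 against 86.2 CPM (-0.99 ± 0.0565, edgeR adjusted p = 6.59e-15), and was lower already in proliferation (-0.42) and at 24 h (-0.66). The muscle filamin FLNC was higher in proliferation (0.25) and lower at 72 h (-0.56 ± 0.0549, edgeR adjusted p = 8.18e-10), after rising by 1.11 by 24 h in monoculture. Talin 2 (TLN2), the muscle form of the integrin activator, stood at 1.73 against 0.927 CPM in proliferation and 3.08 against 4.93 CPM at 72 h (-0.68 ± 0.178, edgeR adjusted p = 0.002). PARVA was higher at 72 h (0.22).

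**Figure D5:**
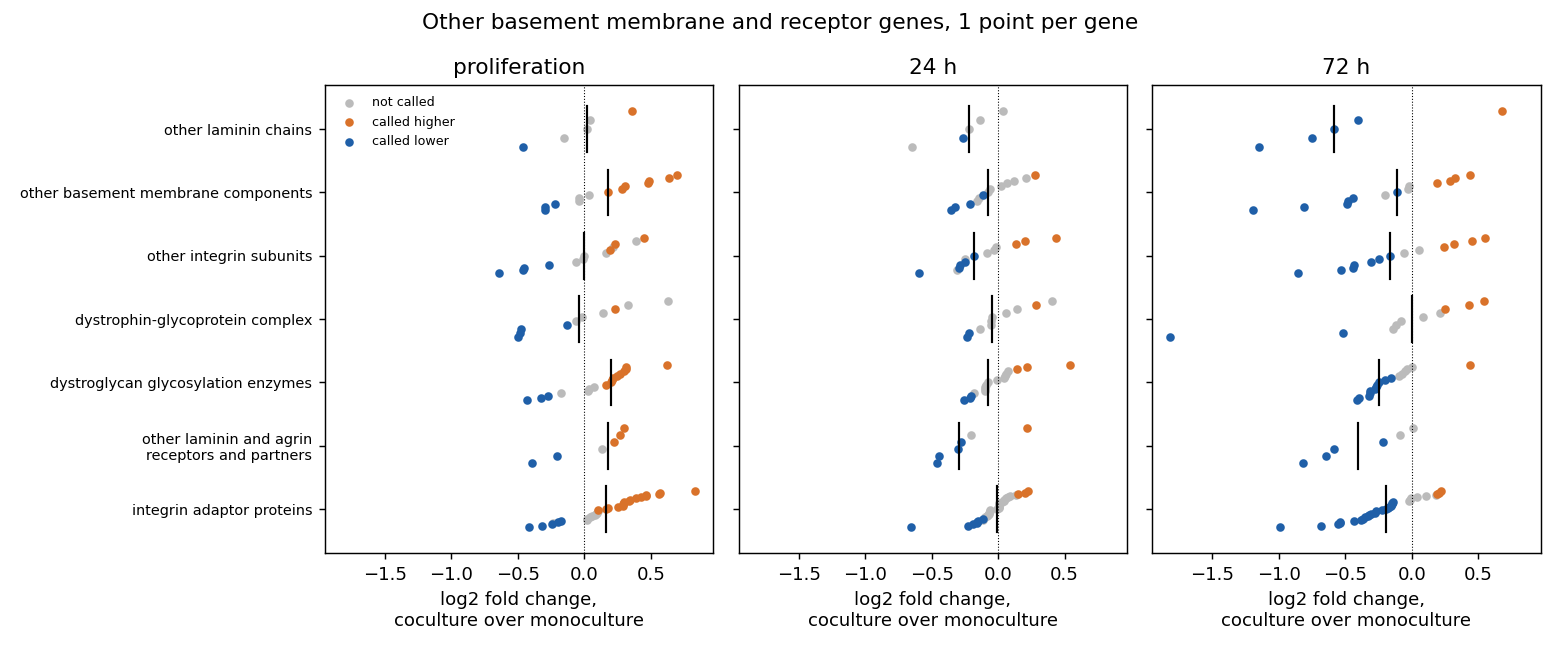
Log2 fold change of coculture over monoculture (horizontal axes) for the genes of 7 lists, 1 point per gene, in proliferation, at 24 h and at 72 h; vertical bars are list medians, and colours mark genes called higher, lower or not called at an adjusted p of 0.05. The medians of the glycosylation enzymes and the integrin adaptors lie above 0 in proliferation (0.20 and 0.16) and below it at 72 h (-0.25 and -0.20).

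Among 9347 other genes with a unique symbol and a mean of at least 5 CPM, those whose log2 CPM followed ITGA7 most closely over the 24 libraries were DCLK2 (Pearson r = 0.985), a microtubule-associated kinase, MYO18A (0.962), an unconventional myosin, IER5 (0.960), GFRA4 (0.948) and SUGP2 (0.948). DCLK2 went from 8.40 to 19.6 and 22.9 CPM in monoculture and from 7.12 to 10.9 and 7.58 CPM in coculture. The most opposite were YWHAG (-0.953), PGK1 (-0.946), a glycolytic enzyme, and IPO5 (-0.936). These values describe libraries that share culture, time and lane and carry no test. Within the 12 monoculture libraries alone DCLK2 had r = 0.996 with ITGA7, and within the 12 coculture libraries 0.911.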

How the data were processed

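Per the labels, sequencing libraries were prepared from 400 ng RNA. The authors deposited whole-number read counts per gene and library. Per the submitters' processing notes the tools were FastQC, STAR, RSEM and DESeq2; if the counts came from RSEM they were rounded. No source used here names the genome build. Of 36 library columns 24 match a label, and the other 12 were not used. The authors' deposited tables of log2 fold changes, with p-values, gave the gene symbols and were otherwise read only to compare the 27 log2 differences between cultures of the 9 genes, which differed from those computed here by at most 0.007.

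Counts were fitted in R 4.3.3 with edgeR 4.0.16: TMM factors, filterByExpr (0 genes removed), 1 mean per group over all 24 libraries (18 residual degrees of freedom), quasi-likelihood F test, and Benjamini-Hochberg adjustment over 11937 genes. The SE is the log2 change over the square root of F. The script was tested on simulated data. Alternatives included DESeq2 1.42.0. The 9 genes, the lists and the tests were chosen with earlier results of these data known. Named were the 9 genes, up to 3 called genes per list with the largest rise and fall in each comparison (more where a list has few genes), and the 5 genes most like and 3 most unlike ITGA7 by correlation of log2 CPM (prior count 2). Cell markers fell outside this rule. DES and NCAM1 are named as the only muscle markers with a row, and ACTA2 and PDGFRA after their values were seen. The plan for the markers held only rows and summed levels, and their calls and p-values were added to it. Differences of the 9 genes between cultures carry no p. Lists of endothelial (3 of 12 with a row) and Schwann cell markers (2 of 8) summed to 34.8 to 111 and 82.0 to 172 CPM. Some genes of these lists are counted but not reported here by name.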

Additional observations from a re-analysis of the deposited data

Results flagged for a closer look

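In 5 of 54 groups of 4 libraries (9 genes in 6 groups) 1 library stood apart by Dixon's test; chance gives about 1 in 20. They were ITGB1 in coculture proliferation replicate 4 (2666 CPM, the others 2622 to 2629), LAMA3 in monoculture 24 h replicate 1 (11.9 CPM, the others 17.01 to 17.5), LAMA3 in coculture proliferation replicate 3 (7.92 CPM, the others 6.11 to 6.26), LAMC1 in coculture 72 h replicate 4 (1104 CPM, the others 1049 to 1051) and DAG1 in coculture 72 h replicate 4 (178 CPM, the others 161 to 163). ITGA7 moved in opposite directions from 24 h to 72 h: each monoculture library at 72 h lies above each at 24 h (log2 0.25), and each coculture library at 72 h lies below each at 24 h (log2 -0.59). The difference between these 2 changes was not tested, because it equals the change in the difference between cultures by which the gene was chosen.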

How the results depend on the processing

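Of 594 alternative values for the 9 genes over time, 553 kept direction and side of the threshold, 24 lost the call, 6 gained it and 11 changed sign. Of the values that changed sign only DAG1 by 24 h in coculture had been called. With library sizes alone ITGB1 stood at -0.12 by 24 h (edgeR adjusted p = 0.036) and LAMA5 at -0.037 from 24 h to 72 h in monoculture, and AGRN at -0.096 and DAG1 at -0.0003 by 24 h in coculture. AGRN by 24 h in coculture was also -0.082 with lane as a term and -0.070 within lane 6, and ranged from -0.0386 to 0.0646 with 1 library left out, below 0 without coculture proliferation replicate 2 or coculture 24 h replicate 3 (-0.0050) or 4 (-0.0075). AGRN from 24 h to 72 h in monoculture ranged from -0.1756 to 0.0225, above 0 without monoculture 24 h replicate 3. LAMA3 by 24 h in monoculture ranged from -0.1598 to 0.0014, above 0 without monoculture 24 h replicate 1. Of 441 alternative differences between cultures 12 moved by more than their spread and none called changed sign. With library sizes alone 3 of the 9 genes were called in coculture by 24 h, against 8. Over all genes, lane as a term left 3402 called at 72 h against 6029, and lane 6 alone left 1746 at 24 h against 2836, with fewer libraries. Without a filter on low counts nothing changed, since 0 genes were removed.

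Replicate numbers do not pair the libraries: of 4 pairs at most 1 in any comparison had deviations correlated over 0.1. With the number as a replicate block HSPG2 lost its call in coculture from 24 h to 72 h (-0.21, edgeR adjusted p = 0.0547).

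With library sizes alone, counts per list over time moved by over 1.5 times in all 7 lists, from 24 h to 72 h in monoculture for example 4 to 2 higher among the other laminin chains and the other integrin subunits, 5 to 8 lower among the other basement membrane genes, 2 to 4 lower in the dystrophin complex, 7 to 4 higher among the glycosylation enzymes and 11 to 17 lower among the adaptors, and by 24 h in coculture 1 to 3 lower among the other receptors and partners. AGRN, at 78 to 261 counts, is the gene most limited by depth.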
